A study of Arabidopsis thaliana with 18 samples.

Results

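A set of 10 Arabidopsis genes for WRKY transcription factors linked to defence and to abscisic acid (ABA) were followed, chosen by gene identifier out of 32833 genes in the tables: WRKY18, WRKY40, WRKY60, WRKY33, WRKY6, WRKY53, WRKY70, WRKY46, WRKY54 and WRKY63. All 10 were found. The members and the gene lists used below were chosen with earlier results of these data known. Their counts and medians beside those of other genes therefore describe the set and are no independent test of it. The 18 RNA-seq libraries came from whole 2-week-old seedlings in the Columbia background, grown on medium with sucrose. There were 3 libraries, from independent biological replicates, in each of 6 groups: bro1-1 mock, WT mock, bro1-1 after 2 h of 100 µM ABA, WT after 2 h of ABA, bro1-1 after 4 h of ABA and WT after 4 h of ABA. The study asked what the loss of AtBro1 (AT1G73390), a Bro1-like domain protein whose transcript rises with ABA, does to the ABA response. The bro1-1 line is a single homozygous T-DNA insertion line with the insert in an intron of AtBro1, so an effect of the allele and an effect of another change in that line cannot be told apart. Whole seedlings were used, so that fewer cells of a type and less RNA per cell cannot be told apart either. The labels give the mock libraries no time, and the same 3 of each genotype served the 2 h and 4 h comparisons. An effect of ABA and an effect of elapsed time or handling therefore cannot be told apart.

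WRKY proteins bind the W box, a short DNA element with the core TTGAC, through a conserved domain, and many WRKY genes carry W boxes themselves and are controlled by other WRKY proteins. The family is known for its part in immunity downstream of salicylic acid and MAP kinases, and several of its proteins also act in ABA signalling, where ABA-responsive genes often carry the ABRE, an element with the core ACGTG. WRKY18, WRKY40 and WRKY60 form subgroup IIa, whose proteins bind each other and repress ABA-responsive genes such as ABI4 and ABI5. WRKY33 (subgroup I) is a MAP kinase substrate that drives the synthesis of camalexin, an antimicrobial compound. WRKY6 (subgroup IIb) acts in phosphate starvation, senescence and ABA signalling. WRKY53, a regulator of leaf senescence, WRKY70, WRKY46 and WRKY54, which act in salicylic acid responses, and WRKY63, also known as ABO3 for its part in ABA tolerance, belong to subgroup III.

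The genes lie on 4 chromosomes of the TAIR10.1 assembly as RefSeq annotates it, and the build the authors used is not given in the sources used here. The IIa genes are WRKY18 (AT4G31800, chr4:15382777-15385100, plus strand), WRKY40 (AT1G80840, chr1:30383561-30385499, plus) and WRKY60 (AT2G25000, chr2:10629662-10631413, plus). WRKY33 is AT2G38470 (chr2:16108235-16110766, plus) and WRKY6 is AT1G62300 (chr1:23016569-23019494, minus). The subgroup III genes are WRKY53 (AT4G23810, chr4:12392370-12393982, minus), WRKY70 (AT3G56400, chr3:20908711-20910623, minus), WRKY46 (AT2G46400, chr2:19043411-19044955, minus), WRKY54 (AT2G40750, chr2:17000419-17002528, minus) and WRKY63 (AT1G66600, chr1:24848320-24849543, plus). Between 2 exons (WRKY53) and 6 exons (WRKY6) are annotated in a transcript model of these genes.

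The 300 bases around each annotated gene start, 250 before and 50 after it, were searched for W box cores (TTGACC or TTGACT) and for ABRE cores (ACGTG followed by G, T or C) on both strands, and no W box match overlapped an ABRE match. WRKY33 and WRKY53 held 2 W box cores each and the other 8 genes held none, beside 32.4% of 27443 protein-coding genes with at least 1 core in the same window and 7.7% with at least 2. ABRE cores were present in WRKY40 (2), WRKY33 (1) and WRKY54 (1), beside 21.3% of protein-coding genes with at least 1. A match describes the letters only. The upstream stretches of WRKY33 and WRKY53 are shown because these genes alone held W box cores, which are in capitals. That of WRKY40 is shown because it alone held 2 ABRE cores, which are in capitals there. Each is written 5′ to 3′ on the strand of its gene.
WRKY33, chr2:16108119-16108228, plus strand, from 116 to 7 bases before the gene start: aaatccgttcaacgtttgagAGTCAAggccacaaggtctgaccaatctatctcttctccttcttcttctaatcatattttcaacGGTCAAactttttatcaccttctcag
WRKY53, chr4:12394028-12394221, minus strand, from 239 to 46 bases before the gene start: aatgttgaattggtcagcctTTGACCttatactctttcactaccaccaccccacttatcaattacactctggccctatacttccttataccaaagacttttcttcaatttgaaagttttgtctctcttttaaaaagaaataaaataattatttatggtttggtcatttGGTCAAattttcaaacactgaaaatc
WRKY40, chr1:30383311-30383522, plus strand, from 250 to 39 bases before the gene start: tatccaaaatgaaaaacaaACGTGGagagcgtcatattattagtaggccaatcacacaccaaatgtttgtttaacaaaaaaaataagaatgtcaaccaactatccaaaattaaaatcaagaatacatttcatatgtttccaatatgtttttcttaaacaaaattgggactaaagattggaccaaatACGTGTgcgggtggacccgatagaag

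The libraries held between 15568034 and 17853178 estimated counts. Seed storage transcripts (SESA3 and CRC) summed to 511 TPM in bro1-1 mock replicate 3 and to between 0 and 12.5 TPM in the other 17 libraries. Leaf markers were high in all 18, but their sum was lower after 4 h than at mock. It was 14950 to 23054 against 32575 to 36331 TPM in bro1-1, and 13815 to 19384 against 20773 to 36822 TPM in WT. Root markers summed to between 6.73 and 48.5 TPM. In bro1-1 mock replicate 3 all 12 genes of a touch and wound list were above the mean of their group. Their summed level was 2392 TPM, against 624 and 612 TPM in the other bro1-1 mock libraries. WT mock replicate 2 had a high sum for that list, with 1477 TPM, against 470 and 576 TPM in the other WT mock libraries. There 8 of the 12 genes were above the mean of their group, against 5 and 7 in WT mock replicates 1 and 3. In WT ABA 4 h replicate 1 all 16 genes of a salicylic acid and defence list were above their group's mean. The list's sum there was 659 TPM, against 182 and 124 TPM. In bro1-1 mock replicate 1, 15 genes were above, with 282 TPM, against 145 and 163 TPM. The count was 14 in WT mock replicate 1, with 222 TPM against 173 and 110 TPM, and 14 in WT ABA 2 h replicate 2. The part of these differences in the results was not tested. Member calls and list counts that change without bro1-1 mock replicate 3, WT mock replicate 2 or WT ABA 4 h replicate 1 are given both ways below. List counts without the other libraries were not taken. AtBro1 itself was at 185 ± 9.81 CPM in bro1-1 after 2 h of ABA and 482 ± 65.9 CPM in WT after 2 h (SD, n = 3 each, adjusted p = 0.044). At mock it was at 11.6 ± 1.05 CPM in bro1-1 and 15.8 ± 4.86 CPM in WT, and was not called. After 4 h it was at 133, 181 and 134 CPM in bro1-1 and 470, 278 and 542 CPM in WT. By RT-PCR, the paper reports its transcript as absent from the mutant line with and without ABA. The counts here do not show that absence, since every bro1-1 library held AtBro1 counts and these were higher after ABA than at mock. Whether they come from a full transcript was not tested.

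In the figures and sentences below, CPM are counts divided by the TMM-scaled size of their library, a gene was called at an adjusted p under 0.05 in edgeR's quasi-likelihood test and a log2 fold change beyond 1 in either direction, and ± after a log2 fold change is its standard error (SE). After 4 h of ABA 7 members were called in WT and 4 in bro1-1, a contrast that rests on single libraries: with each library left out in turn, 4 to 7 were called in WT (4 without WT mock replicate 3) and 2 to 6 in bro1-1 (6 without bro1-1 mock replicate 3). In bro1-1 after 2 h, WRKY6 rose and WRKY70 and WRKY54 fell among 9 members tested, beside 13.4% of all tested genes called higher and 8.45% called lower. In bro1-1 after 4 h, WRKY60, WRKY53 and WRKY6 rose and WRKY54 fell among 9 tested, beside 15.5% higher and 8.24% lower. In WT after 2 h, WRKY40, WRKY53 and WRKY6 rose and none of 9 fell, beside 10.9% and 6.8%. In WT after 4 h, 7 of 9 rose (WRKY18, WRKY40, WRKY60, WRKY33, WRKY53, WRKY70 and WRKY6) and none fell, beside 13.5% and 7.41%. The median log2 fold change of the 9 members tested was 0.19 in bro1-1 and 0.72 in WT after 2 h, and 1.08 in bro1-1 and 1.99 in WT after 4 h, and that of all tested genes lay between −0.04 and −0.01 in the same comparisons. The difference between genotypes is tested further on, and no member passed that test in edgeR.

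**Figure D1:**
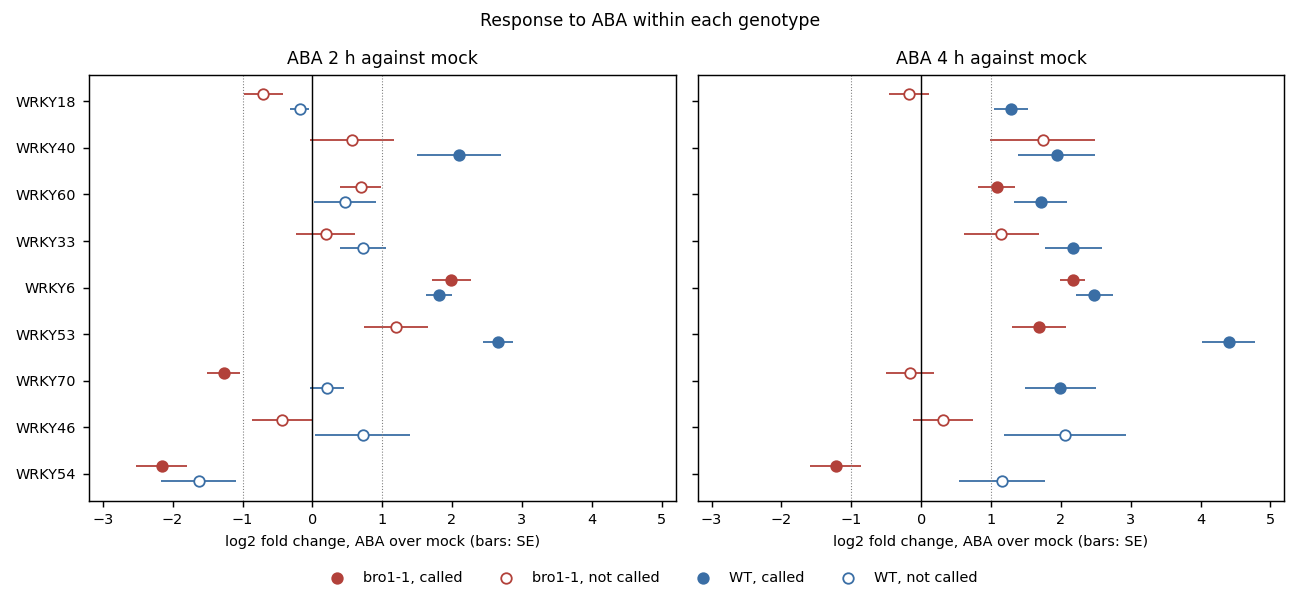
Log2 fold change of 9 WRKY genes (rows) after 2 h (left panel) and 4 h (right panel) of ABA over mock, in bro1-1 (red, upper point of each row) and WT (blue, lower point), with bars for the SE, filled points for genes called and open points for genes not called. In the 4 h panel, 7 WT points and 4 bro1-1 points are filled, and WRKY53 in WT is the rightmost at 4.40.

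Some members had no overlap of libraries and no call: after 2 h, WRKY18 in both genotypes, WRKY53 in bro1-1 and WRKY54 in WT. After 4 h every tested member without overlap was called. After 2 h of ABA the 3 treated and 3 mock libraries did not overlap for 5 of 9 members in bro1-1 and for 5 of 9 in WT, beside 55.2% and 46.8% of all tested genes. After 4 h they did not overlap for 4 of 9 in bro1-1 and 7 of 9 in WT, beside 55.1% and 50.1%. Of these counts, that of WT after 4 h is the one most above its background.

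**Figure D2:**
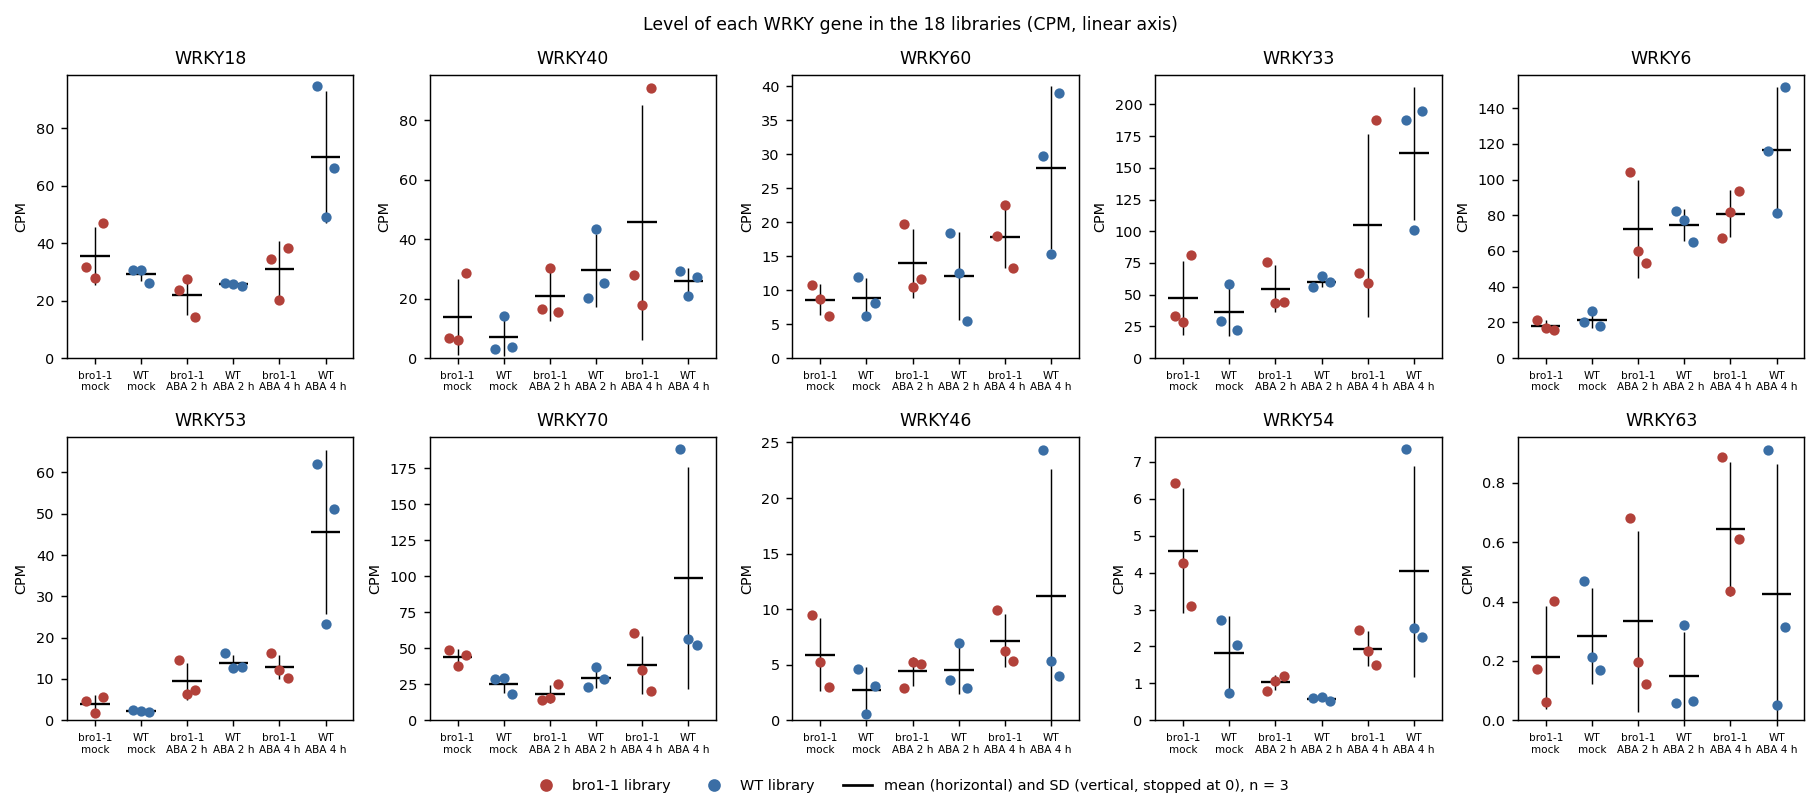
Level of each WRKY gene in CPM (vertical axis, linear, from 0) in the 18 libraries, in groups from mock to 4 h with bro1-1 (red) left of WT (blue), as points for libraries with the mean (horizontal line) and SD (vertical line, stopped at 0; n = 3). WRKY53 in WT after 4 h lies between 23.4 and 62 CPM, above every other library of that gene.

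Among the subgroup IIa genes, WRKY18 rose in WT after 4 h and in no other group. WRKY18 in bro1-1 was at 31.8, 27.9 and 46.9 CPM at mock, 23.8, 27.6 and 14.4 CPM after 2 h, and 34.5, 20.2 and 38.4 CPM after 4 h. WRKY18 in WT was at 30.8, 30.6 and 26.3 CPM at mock, 26.2, 25.8 and 25.1 CPM after 2 h, and 94.7, 49 and 66.3 CPM after 4 h. Every WT 4 h library was above every other WRKY18 value, and the 2 h libraries lay below mock in both genotypes by small margins. The rise in WT after 4 h was 2.45-fold (log2 fold change 1.29 ± 0.24, adjusted p = 0.00641), and the change in bro1-1 at that time was −0.17 ± 0.283 (adjusted p = 0.653). After 2 h the log2 fold changes were −0.70 ± 0.284 in bro1-1 (adjusted p = 0.0833) and −0.18 ± 0.135 in WT (adjusted p = 0.348).

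WRKY40, which is induced rapidly by wounding and microbial signals, varied widely between libraries of one group. WRKY40 in bro1-1 was at 6.6, 6.24 and 28.7 CPM at mock, 16.5, 30.4 and 15.4 CPM after 2 h, and 28.1, 18 and 90.8 CPM after 4 h. WRKY40 in WT was at 2.98, 14.1 and 3.8 CPM at mock, 20.1, 43.4 and 25.1 CPM after 2 h, and 29.4, 21 and 27.3 CPM after 4 h. The high mock libraries, bro1-1 replicate 3 and WT replicate 2, are those with the highest touch and wound sums, and the part of that list in the WRKY40 values was not tested. The groups did not overlap in WT, where WRKY40 rose 4.27-fold after 2 h (2.10 ± 0.601, adjusted p = 0.0396) and 3.83-fold after 4 h (1.94 ± 0.548, adjusted p = 0.032). In bro1-1 they overlapped, with log2 fold changes of 0.57 ± 0.598 after 2 h (adjusted p = 0.478) and 1.74 ± 0.751 after 4 h (adjusted p = 0.0996). These results turned on single libraries: without bro1-1 mock replicate 3 both bro1-1 changes were called, at 1.70 (adjusted p = 0.00712) and 2.85 (adjusted p = 0.0118). The WT call at 2 h was lost when any single library other than WT mock replicate 2 was left out (adjusted p up to 0.128), and the WT call at 4 h was lost without WT mock replicate 3 or any of the 3 WT ABA 4 h libraries (adjusted p up to 0.0963).

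WRKY60, a gene whose promoter is bound by WRKY18 and WRKY40, rose in both genotypes after 4 h. WRKY60 in bro1-1 was at 10.8, 8.76 and 6.26 CPM at mock, 19.7, 10.4 and 11.7 CPM after 2 h, and 18, 22.5 and 13.2 CPM after 4 h. WRKY60 in WT was at 12, 6.19 and 8.17 CPM at mock, 18.4, 12.5 and 5.51 CPM after 2 h, and 29.7, 15.3 and 39.1 CPM after 4 h. The 4 h libraries of both genotypes were above their mock libraries, and the 2 h libraries overlapped with mock. The 4 h rise was 2.11-fold in bro1-1 (1.08 ± 0.267, adjusted p = 0.0137) and 3.26-fold in WT (1.71 ± 0.377, adjusted p = 0.0128), while after 2 h the log2 fold changes were 0.69 ± 0.299 in bro1-1 (adjusted p = 0.105) and 0.47 ± 0.44 in WT (adjusted p = 0.457). The bro1-1 call at 4 h was lost with all 18 libraries in 1 fit, without bro1-1 mock replicate 3 or without bro1-1 ABA 4 h replicate 2 (adjusted p up to 0.0612), and the WT call without WT mock replicate 3 (adjusted p = 0.0511).

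WRKY33 rose in WT after 4 h. WRKY33 in bro1-1 was at 33.1, 28.1 and 81.2 CPM at mock, 76.1, 43.4 and 44.6 CPM after 2 h, and 67.1, 59 and 188 CPM after 4 h. WRKY33 in WT was at 29.4, 58.3 and 22.2 CPM at mock, 56.3, 64.4 and 59.7 CPM after 2 h, and 188, 101 and 195 CPM after 4 h. As for WRKY40, bro1-1 mock replicate 3, WT mock replicate 2 and bro1-1 ABA 4 h replicate 3 were the highest of their groups. The WT rise after 4 h was 4.52-fold (2.18 ± 0.405, adjusted p = 0.00657), with no overlap. It was called without each library in turn, at 1.90 to 2.67. The bro1-1 libraries overlapped, at 1.15 ± 0.538 after 4 h (adjusted p = 0.122) and 0.19 ± 0.42 after 2 h (adjusted p = 0.739), and WT after 2 h was at 0.72 ± 0.327 (adjusted p = 0.143). Without bro1-1 mock replicate 3 the bro1-1 change after 4 h was called, at 1.79 (adjusted p = 0.0212), and without WT mock replicate 2 the WT change after 2 h was called, at 1.21 (adjusted p = 0.00293). WRKY33 overlaps the opposite-strand AT2G08965, listed at 0 in every library, and the end of AT2G38480, by 26 bases.

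WRKY6 was the only member called in all 4 comparisons of ABA with mock. WRKY6 in bro1-1 was at 21.5, 16.9 and 16 CPM at mock, 104, 59.8 and 53.3 CPM after 2 h, and 67.1, 81.8 and 93.4 CPM after 4 h. WRKY6 in WT was at 20.1, 26.5 and 17.8 CPM at mock, 82.2, 77.2 and 64.9 CPM after 2 h, and 116, 81.2 and 152 CPM after 4 h. No ABA library overlapped a mock library of either genotype. WRKY6 rose 3.97-fold in bro1-1 (1.99 ± 0.274, adjusted p = 0.00127) and 3.5-fold in WT (1.81 ± 0.188, adjusted p = 0.000879) after 2 h. After 4 h it rose 4.51-fold in bro1-1 (2.17 ± 0.181, adjusted p = 9.83e-05) and 5.56-fold in WT (2.48 ± 0.268, adjusted p = 0.000669). These 4 calls were kept in every alternative run, with adjusted p of 0.00754 or lower.

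Of the subgroup III genes, WRKY53 had the highest fold change of the members. WRKY53 in bro1-1 was at 4.69, 1.86 and 5.63 CPM at mock, 14.5, 6.41 and 7.41 CPM after 2 h, and 16.2, 12.2 and 10.3 CPM after 4 h. WRKY53 in WT was at 2.45, 2.13 and 1.99 CPM at mock, 16.2, 12.7 and 12.8 CPM after 2 h, and 62, 23.4 and 51.2 CPM after 4 h. ABA and mock libraries did not overlap in either genotype, and after 4 h no bro1-1 library reached the lowest WT library. WRKY53 rose 6.34-fold in WT after 2 h (2.66 ± 0.214, adjusted p = 0.000306) and 21.2-fold after 4 h (4.40 ± 0.382, adjusted p = 0.00031). In bro1-1 it rose 3.22-fold after 4 h (1.69 ± 0.389, adjusted p = 0.0102) and was not called after 2 h (2.3-fold, adjusted p = 0.07), where DESeq2 (adjusted p = 0.0292) and the fit of all 18 libraries (adjusted p = 0.0247) called it. The WT calls and the bro1-1 call at 4 h were kept without each library in turn (adjusted p up to 0.036), and the 2 h change in bro1-1 was called without bro1-1 mock replicate 3 (adjusted p = 0.0477). WRKY53 shares 341 bases with AT4G23800 on the opposite strand, the strand setting of the counting is not given in the sources used here, and the values of AT4G23800 were 52.5 ± 21.3 CPM in bro1-1 after 4 h and 50.4 ± 4.19 CPM in bro1-1 mock, and 35.3 ± 10.5 CPM in WT after 4 h and 45.5 ± 8.93 CPM in WT mock (SD, n = 3).

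WRKY70, a positive regulator of salicylic acid responses, fell in bro1-1 after 2 h and rose in WT after 4 h. WRKY70 in bro1-1 was at 48.7, 37.8 and 45.6 CPM at mock, 14.1, 15.6 and 25.5 CPM after 2 h, and 60.4, 35 and 20.6 CPM after 4 h. WRKY70 in WT was at 28.9, 29.6 and 18 CPM at mock, 23.3, 36.7 and 28.4 CPM after 2 h, and 188, 56.1 and 52.1 CPM after 4 h. All bro1-1 2 h libraries were below all bro1-1 mock libraries, and all WT 4 h libraries were above all WT mock libraries. The log2 fold change in bro1-1 after 2 h was −1.27 ± 0.237 (adjusted p = 0.00481) and was called in every alternative. In WT after 4 h it was 1.99 ± 0.509 (3.96-fold, adjusted p = 0.0223), a value that leans on WT ABA 4 h replicate 1, without which it was 1.14 and still called. Without WT mock replicate 3 that call was lost (adjusted p = 0.0808). The changes in bro1-1 after 4 h (−0.16 ± 0.347, adjusted p = 0.738) and in WT after 2 h (0.21 ± 0.245, adjusted p = 0.55) were not called.

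WRKY54, the closest relative of WRKY70, was low in every library, and it fell in bro1-1 after 2 h and after 4 h. WRKY54 in bro1-1 was at 6.42, 4.26 and 3.1 CPM at mock, 0.807, 1.06 and 1.21 CPM after 2 h, and 2.44, 1.87 and 1.5 CPM after 4 h. WRKY54 in WT was at 2.71, 0.747 and 2.04 CPM at mock, 0.592, 0.639 and 0.531 CPM after 2 h, and 7.34, 2.5 and 2.26 CPM after 4 h. The 2 h libraries were below mock in both genotypes without overlap. The log2 fold change in bro1-1 was −2.16 ± 0.372 after 2 h (4.47-fold lower, adjusted p = 0.00337) and −1.22 ± 0.365 after 4 h (adjusted p = 0.0295). In WT it was −1.63 ± 0.534 after 2 h (adjusted p = 0.0607) and 1.16 ± 0.614 after 4 h (adjusted p = 0.185). The bro1-1 call at 4 h was lost without bro1-1 mock replicate 1 or 2 or bro1-1 ABA 4 h replicate 2 or 3 (adjusted p up to 0.107), and the WT change after 2 h was called by DESeq2 (adjusted p = 0.0372), with all 18 libraries in 1 fit (adjusted p = 0.027) and without WT mock replicate 2 (−2.01, adjusted p = 0.0133).

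WRKY46, which acts with WRKY70 and WRKY54 in defence and growth, was called by edgeR on a comparison's own libraries only with the replicate number as a block. WRKY46 in bro1-1 was at 9.49, 5.22 and 2.99 CPM at mock, 2.92, 5.29 and 5.04 CPM after 2 h, and 9.91, 6.24 and 5.38 CPM after 4 h. WRKY46 in WT was at 4.59, 0.534 and 3.06 CPM at mock, 3.61, 6.97 and 2.92 CPM after 2 h, and 24.3, 5.37 and 3.95 CPM after 4 h. WT ABA 4 h replicate 1 stood far above the rest, replicate 2 lay just above the mock libraries and replicate 3 within their range. The log2 fold changes were −0.43 ± 0.435 in bro1-1 and 0.72 ± 0.684 in WT after 2 h, and 0.31 ± 0.427 in bro1-1 and 2.06 ± 0.87 in WT after 4 h, with adjusted p of 0.468, 0.47, 0.59 and 0.109. The WT change after 4 h was called by DESeq2 (adjusted p = 0.0283) and by edgeR with all 18 libraries in 1 fit (2.03, adjusted p = 0.0297). With the replicate number as a block edgeR also called it (2.00, adjusted p = 0.0474), and edgeR gave 0.82 without WT ABA 4 h replicate 1.

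WRKY63 was close to the limit of detection, with 1 to 16 counts in a library. WRKY63 in bro1-1 was at 0.174, 0.06 and 0.402 CPM at mock, 0.683, 0.198 and 0.121 CPM after 2 h, and 0.886, 0.437 and 0.61 CPM after 4 h. WRKY63 in WT was at 0.47, 0.213 and 0.17 CPM at mock, 0.0592, 0.32 and 0.0664 CPM after 2 h, and 0.91, 0.0532 and 0.314 CPM after 4 h. The 3 bro1-1 libraries after 4 h were above the 3 bro1-1 mock libraries, by a few counts, and the other groups overlapped with their mock groups. The gene did not pass the count filter in any comparison of ABA with mock. Its relatives WRKY64 and WRKY67, counted in the same libraries, had at most 5 and 14 counts.

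Levels across genes were compared per length, in TPM. In bro1-1 mock WRKY70 was highest with 44.9 ± 8.11 TPM, then WRKY18 with 42.3 ± 15.6 and WRKY33 with 34.6 ± 24.3 (SD, n = 3), and in WT mock WRKY18 was highest with 36.4 ± 3.96 TPM, then WRKY33 with 28.2 ± 16.3 and WRKY70 with 27.9 ± 8.14. Neighbours among these 3 overlapped in both groups, and WRKY63 was lowest in all 6 groups. After 2 h WRKY6 was highest, with 40.4 ± 16.8 TPM in bro1-1 and 40.6 ± 6.51 TPM in WT. After 4 h WRKY33 was highest, with 74.6 ± 56.1 TPM in bro1-1 and 107 ± 27.1 TPM in WT. In each of these cases the second gene overlapped the first.

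**Figure D3:**
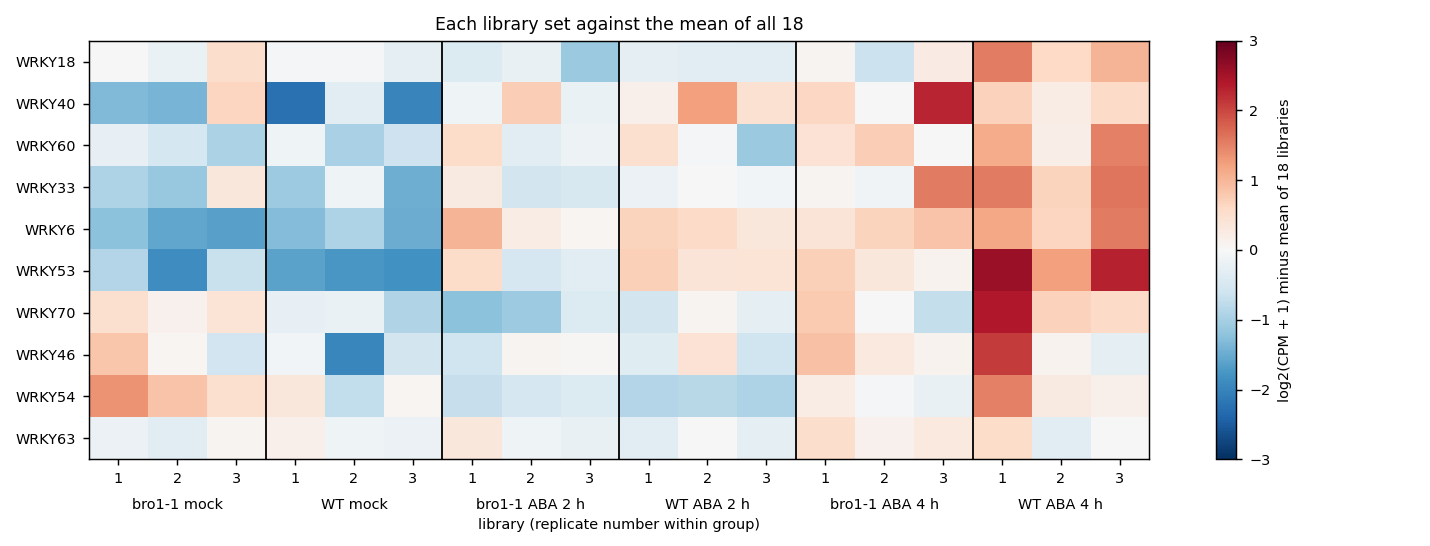
Each WRKY gene (rows) in the 18 libraries (columns, replicates 1 to 3 within each group, bro1-1 left of WT at each time), as log2(CPM + 1) minus the mean of all 18 libraries (colour scale from −3 to 3, red above and blue below the mean). WT ABA 4 h replicate 1 is red for all 10 genes, and WRKY40 and WRKY33 are red in bro1-1 mock replicate 3, unlike the other bro1-1 mock libraries.

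Between 2 h and 4 h of ABA, 10 of 10 tested members had a log2 fold change above 0 in bro1-1 (median 0.81). In WT 8 of 9 were above 0 (median 1.43), and the median over all genes was 0.00 in both genotypes. Members were called in WT alone, and a difference between the genotypes in this change was not tested. In WT, WRKY18 (1.45 ± 0.22, adjusted p = 0.0124), WRKY33 (1.43 ± 0.239, adjusted p = 0.0159), WRKY53 (1.71 ± 0.323, adjusted p = 0.0219) and WRKY54 (2.76 ± 0.54, adjusted p = 0.024) were higher after 4 h than after 2 h, 4 of 9 tested, beside 2.12% of all genes called higher. WRKY60 (1.21 ± 0.447, adjusted p = 0.133) and WRKY70 (1.74 ± 0.472, adjusted p = 0.0599) were not called by edgeR and were called by DESeq2 (adjusted p = 0.0399 and 0.00105). WRKY70 was also called with no filter on low counts, with all 18 libraries in 1 fit and without WT ABA 4 h replicate 2 or 3. DESeq2 called 6 members in WT, beside 5.34% of all genes, and 7 members had an unadjusted p under 0.05 in edgeR, beside 26.3%. In bro1-1 none of 10 tested was called, beside 0.56% of all genes. There, WRKY18 was at 0.50 ± 0.298, WRKY33 at 0.94 ± 0.449, WRKY53 at 0.45 ± 0.328 and WRKY54 at 0.91 ± 0.361 (adjusted p of 0.411, 0.311, 0.51 and 0.225). At an unadjusted p under 0.05 there were 2 of 10 members in bro1-1, beside 18.9% of all genes, and DESeq2 called 0, beside 3.4%. Leaving out single WT libraries reduced the 4 calls to as few as 1: WRKY53 and WRKY54 were lost without any WT ABA 2 h library or WT ABA 4 h replicate 1 (adjusted p up to 0.0794 and 0.084), WRKY33 without WT ABA 2 h replicate 1 or WT ABA 4 h replicate 1 (adjusted p up to 0.0648) and with all 18 libraries in 1 fit (adjusted p = 0.084), and WRKY18 was called throughout.

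Bro1-1 and WT were compared directly at each time, and edgeR called no member. DESeq2 called no member at mock, after 2 h or over all times, beside 0.0247%, 0.354% and 0.0932% of all genes. At mock, 0 of 9 members were called, beside 0.0153% of all genes. At an unadjusted p under 0.05 there were 2 of 9, WRKY70 and WRKY54, beside 1.19% of all genes, and both also had libraries that did not overlap, beside 5.52% of genes. WRKY70 averaged 44.1 ± 5.62 CPM in bro1-1 mock and 25.5 ± 6.47 CPM in WT mock (SD, n = 3 each; log2 fold change 0.79 ± 0.216, adjusted p = 1), and WRKY54 averaged 4.6 ± 1.69 CPM and 1.83 ± 1 CPM in these groups (1.32 ± 0.504, adjusted p = 1). After 2 h, 0 of 9 were called, beside 0.0308%. Only WRKY70 had an unadjusted p under 0.05, beside 7.15% of genes, with 18.4 ± 6.2 CPM in bro1-1 and 29.5 ± 6.74 CPM in WT (−0.68 ± 0.257, adjusted p = 0.674). WRKY54 was the single member whose libraries did not overlap, beside 12.1% of genes (0.80 ± 0.394, adjusted p = 0.736).

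After 4 h of ABA, 0 of 10 members were called between bro1-1 and WT by edgeR, beside 0.0202% of all genes, and 3 of 10 had an unadjusted p under 0.05, beside 10.1%. WRKY53 averaged 12.9 ± 2.98 CPM in bro1-1 and 45.5 ± 19.9 CPM in WT (SD, n = 3 each), with a log2 fold change of −1.79 ± 0.341 (adjusted p = 0.22). WRKY18 averaged 31 ± 9.61 CPM in bro1-1 and 70 ± 23.1 CPM in WT, at −1.16 ± 0.292 (adjusted p = 0.313). These 2 genes did not overlap between genotypes, beside 14.3% of all genes, and both were called by DESeq2 (adjusted p = 0.000139 for WRKY53 and 0.0177 for WRKY18), a tool that called 1.35% of all genes in this comparison. WRKY70 averaged 38.7 ± 20.1 CPM in bro1-1 and 98.7 ± 77.3 CPM in WT, at −1.32 ± 0.554 (adjusted p = 0.478), and at −0.48 without WT ABA 4 h replicate 1. Without WT ABA 4 h replicate 2, WRKY53 was called by edgeR (adjusted p = 0.0321). Over all times together, 0 of 10 members were called, beside 0.0485% of genes, and 0 of 10 had an unadjusted p under 0.05, beside 6.5%.

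Whether the response to ABA differed between genotypes was tested as an interaction, the response in bro1-1 minus that in WT on the log2 scale. At 2 h no member of 9 was called, beside 0% of all genes, and 2 had an unadjusted p under 0.05, beside 5.12%: WRKY70 at −1.46 ± 0.361 (unadjusted p = 0.00171) and WRKY53 at −1.44 ± 0.545 (unadjusted p = 0.0222), both with an adjusted p of 0.909. At 4 h none of 10 was called by edgeR, beside 0% of all genes, and 4 had an unadjusted p under 0.05, beside 5.95%. These were WRKY53 at −2.67 ± 0.571 (unadjusted p = 0.000562), WRKY18 at −1.42 ± 0.4 (0.0041), WRKY70 at −2.10 ± 0.682 (0.00967) and WRKY54 at −2.34 ± 0.76 (0.00985), each with an adjusted p of 0.83 in edgeR's quasi-likelihood test. DESeq2 called WRKY53 (adjusted p = 0.0386) and no other member, beside 0.0239% of all genes. The interaction was below 0 for 7 of 9 members at 2 h and 9 of 10 at 4 h, with medians of −0.52 and −1.20, beside 0.02 and 0.03 over all genes; the members share libraries and are not independent of each other. Leaving out WT ABA 4 h replicate 1 moved WRKY70 to −1.25 and WRKY54 to −1.60.

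Outside these 10 genes, the tables hold 62 WRKY genes. In bro1-1, 11 of 46 tested were raised and 4 lowered after 2 h of ABA, and 12 of 48 were raised and 3 lowered at 4 h. In WT, 6 of 43 were raised and 9 lowered at 2 h, and 7 of 50 were raised and 5 lowered at 4 h. Without WT ABA 4 h replicate 1, 8 were raised and 1 lowered in WT at 4 h, and without WT mock replicate 2, 7 were raised and 3 lowered. Without WT mock replicate 2, 5 were raised and 8 lowered in WT at 2 h. Without bro1-1 mock replicate 3, 11 were raised and 5 lowered in bro1-1 at 2 h, and 11 raised and 3 lowered at 4 h. The shares raised were 23.9% and 25% in bro1-1 and 14% and 14% in WT at 2 h and 4 h, beside the shares of all genes given above. The highest called were WRKY56 in bro1-1 (3.47 ± 0.832 after 2 h and 3.91 ± 0.777 after 4 h), WRKY24 in WT after 2 h (2.60 ± 0.798) and WRKY30 in WT after 4 h (3.70 ± 0.695). The WRKY24 call in WT after 2 h was lost without WT mock replicate 2. The lowest called were WRKY26 (−1.58 ± 0.227) in bro1-1 after 2 h, WRKY47 (−1.76 ± 0.178) in bro1-1 after 4 h and WRKY72 (−2.20 ± 0.434) in WT after 4 h. WRKY58 was the lowest called in WT after 2 h, where a single count was left over the 3 libraries, so that no fold is given. By subgroup, 7 of 14 IIc genes in bro1-1 and 5 of 14 in WT rose after 4 h and none fell. No IIb gene rose in WT after 4 h other than WRKY6 and 3 of 7 fell, beside 7.41% of all genes. Of those 3, WRKY72 alone kept its call without WT ABA 4 h replicate 1, and likewise without WT mock replicate 2. The medians of the other WRKY genes after 4 h were 0.15 in bro1-1 and 0.30 in WT, beside 1.08 and 1.99 for the members. WRKY55, which lies next to WRKY54, had at most 25 counts.

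Genes that these factors are known to act on or with were counted by list. Of all genes, 13.4% and 15.5% were called higher in bro1-1 at 2 h and 4 h, and 8.45% and 8.24% lower. In WT these shares were 10.9% and 13.5% higher, and 6.8% and 7.41% lower. Of 11 ABA genes linked to WRKY factors, 10 were tested. Those that rose in bro1-1 numbered 6 at each time (60%), and RAV1 fell after 4 h. Those that rose in WT numbered 7 at each time (70%), and PHO1 fell. The list's median was 2.53 in bro1-1 and 2.45 in WT after 2 h, and 2.91 in bro1-1 and 2.98 in WT after 4 h. ABF2, a bZIP factor that binds the ABRE, changed by 3.64 ± 0.164 in bro1-1 and 3.24 ± 0.165 in WT after 2 h, and RAB18, a dehydrin used as an ABA marker, by 5.24 ± 0.375 in bro1-1 and 5.85 ± 0.53 in WT after 4 h. PHO1, a phosphate exporter repressed by WRKY6, fell in WT by 1.79 after 2 h and by 1.24 after 4 h on the log2 scale, and was at −0.99 ± 0.498 and −0.13 ± 0.438 in bro1-1, where it was not called. The WT call of PHO1 at 4 h was lost without WT ABA 4 h replicate 1 and without WT mock replicate 2, and without bro1-1 mock replicate 3 there was 1 gene lower in bro1-1 at 2 h. No gene of this list had a called interaction in edgeR. Of 11 WRKY33 kinases, partners and targets, 1 rose and 1 fell in bro1-1 after 2 h (9.09% each). In bro1-1 after 4 h 2 rose (18.2%) and 1 fell (9.09%), and in WT 2 rose (18.2%) and none fell at each time. The medians were 0.56 in bro1-1 and 0.78 in WT after 4 h, the WT median being 0.09 without WT ABA 4 h replicate 1. ACS2, an ethylene synthesis enzyme, rose by 4.11 ± 0.321 in bro1-1 and 4.57 ± 0.324 in WT after 2 h on the log2 scale, and MPK3, a kinase of WRKY33, fell in bro1-1 by 1.55 after 2 h and by 1.09 after 4 h and was at −0.99 ± 0.203 and −0.27 ± 0.232 in WT. Its bro1-1 call at 4 h was lost without bro1-1 mock replicate 3, and without WT mock replicate 2 the genes of this list raised in WT at 2 h numbered 1.

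Of the 16 salicylic acid and defence genes, 2 rose in bro1-1 after 2 h, 3 rose in bro1-1 after 4 h, 1 rose in WT after 2 h and 3 rose in WT after 4 h, and none fell. These are shares of 12.5%, 18.8%, 6.25% and 18.8%, near the 13.4%, 15.5%, 10.9% and 13.5% of all genes called higher. FRK1, a marker of pattern-triggered immunity, rose in all 4 comparisons, by 3.75 ± 0.454 in bro1-1 and 2.73 ± 0.46 in WT after 2 h and by 2.18 ± 0.384 in bro1-1 and 2.57 ± 0.381 in WT after 4 h. The list's median after 4 h was −0.14 in bro1-1 and 1.22 in WT, beside −0.01 and −0.02 over all genes, and WT ABA 4 h replicate 1 is the library in which the whole list was high. Without that library the WT median after 4 h was 0.05 and 1 gene rose, and without WT mock replicate 2 it was 0.93 and 1 gene rose. Without bro1-1 mock replicate 3, 2 genes were raised and 2 lowered in bro1-1 at 2 h, and 2 were raised at 4 h, with a median of −0.41. Of the 12 touch and wound genes, 2 rose and 3 fell in bro1-1 after 2 h, 5 rose and 1 fell in bro1-1 after 4 h, 4 rose in WT after 2 h and 9 rose in WT after 4 h, with medians of 0.60 in bro1-1 and 1.48 in WT after 4 h. Those raised made up 16.7%, 41.7%, 33.3% and 75%, beside the shares of all genes given above. Those lowered in bro1-1 made up 25% and 8.33%, beside 8.45% and 8.24% of all genes. The bro1-1 values rest on mock replicate 3, in which all 12 genes were high. Without it, 4 were raised and 3 lowered in bro1-1 at 2 h, and 7 were raised and 1 lowered at 4 h, with a median of 1.55. In WT after 4 h, 6 rose without WT ABA 4 h replicate 1 and 8 without WT mock replicate 2. ZAT12, a zinc finger factor of stress responses, rose by 1.89 ± 0.405 in bro1-1 and 2.53 ± 0.358 in WT after 2 h.

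The gene whose pattern over the 18 libraries was most like each member's was taken by Pearson's r of log2(CPM + 1), as a description. WRKY6 was most like AAO3 (r = 0.981), an ABA synthesis enzyme, WRKY46 most like ICS1 (r = 0.904), the salicylic acid synthesis enzyme, WRKY33 most like NAC062 (r = 0.933) and WRKY70 most like PNP-A (r = 0.927). WRKY53, WRKY40 and WRKY60 were most like AT1G71910 (r = 0.952), AT3G01820 (r = 0.944) and AT5G23490 (r = 0.94). Among the members themselves the most alike were WRKY53 and WRKY6 (r = 0.884), WRKY33 and WRKY53 (r = 0.812) and WRKY40 and WRKY33 (r = 0.782). The libraries share the ABA treatment, so these values mix the treatment with the spread within groups. WRKY46 and the defence list that holds ICS1 were both high in WT ABA 4 h replicate 1, and r without that library was not taken.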

How the data were processed

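RNA-seq of 18 seedling libraries was analysed from the gene tables the authors deposited. Per the study's methods, reads were filtered, ribosomal reads were removed with Bowtie2 2.3.5.1, and estimated counts and TPM were made with RSEM 1.2.30; the authors deposited expected counts that are not scaled between libraries and TPM that are scaled within each library. The genome build and strand setting are not given in the sources used here. Expected counts were rounded and tested with edgeR 4.0.16 (R 4.3.3; filterByExpr, TMM, quasi-likelihood F test) on the libraries of each comparison, with Benjamini-Hochberg adjustment over all genes tested. Alternatives were DESeq2 1.42.0 at default settings, RLE size factors, testing without the count filter, adjusted p alone, all 18 libraries in 1 fit, the replicate number as a block and leaving out each library. Fits were tested on simulated data. Named genes beyond the members were the called other WRKY genes with the highest and lowest change, up to 5 genes of each list with the smallest p in WT after 2 h, and those most alike in pattern. Members and lists were chosen with earlier results of these data known. Gene names and sequences came from RefSeq TAIR10.1, matched by locus identifier for all 10 members. No 2 libraries of a group agreed within sampling noise.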

Additional observations from a re-analysis of the deposited data

How the results depend on the processing

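No called member changed direction in any alternative. Over 768 refits of the single-gene values, 704 kept their side of the thresholds, 29 lost and 26 gained a call, and 9 changed sign, all 9 of genes not called and on leaving out 1 library. The number of members called ranged, over leaving out each library, from 3 to 5 in bro1-1 after 2 h (5 without bro1-1 mock replicate 3), 2 to 6 in bro1-1 after 4 h (2 without bro1-1 ABA 4 h replicate 2), 2 to 5 in WT after 2 h (5 without WT mock replicate 2), 4 to 7 in WT after 4 h (4 without WT mock replicate 3), 1 to 5 in WT at 4 h against 2 h, and 0 to 1 in bro1-1 against WT after 4 h. DESeq2 called 2 members in bro1-1 against WT after 4 h and 1 in the 4 h interaction, against 0 and 0 in edgeR. The values that changed sign ranged in bro1-1 after 2 h from −0.12 to 0.85 for WRKY33 and from −0.73 to 0.10 for WRKY46, and in bro1-1 after 4 h from −0.35 to 0.08 for WRKY18, from −0.65 to 0.15 for WRKY70 and from −0.01 to 0.79 for WRKY46. The cause of these moves was not tested.

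The labels give the groups the same replicate numbers. Over all genes passing the count filter, the correlation of deviations from group means was as low as −0.442 for same-numbered libraries. In no comparison was it above 0.1 for every pair, so the numbers were not taken as pairs. Some genes did share a pattern. WRKY46, WRKY54 and the salicylic acid and defence list were highest in replicate 1 at mock and after 4 h in both genotypes, but not after 2 h. WRKY40 and WRKY33 were highest in replicate 3 of bro1-1 at mock and after 4 h. With the block their SE in bro1-1 after 4 h was 0.175 and 0.135, against 0.751 and 0.538 without it. With the replicate number as a block, 4 members were called in bro1-1 after 2 h, 6 in bro1-1 after 4 h, 3 in WT after 2 h, 8 in WT after 4 h and 4 in WT at 4 h against 2 h, and 0 in each of the other comparisons. The calls the block added were WRKY53 in bro1-1 after 2 h (adjusted p = 0.037), WRKY40 (adjusted p = 0.000673) and WRKY33 (adjusted p = 0.00143) in bro1-1 after 4 h, and WRKY46 in WT after 4 h (adjusted p = 0.0474), and no call was lost. Low genes such as WRKY63 and WRKY54 rest on few counts. The list counts without a library that stands apart were added after the data had been seen.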
